A study of Homo sapiens with 4 samples.

Results

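The transcripts of the proteins that read and remove N6-methyladenosine (m6A) were examined in RIP-seq of MDA-MB-231 cells, a human triple negative breast cancer line. RIP-seq sequences the RNA that an antibody against a protein pulls down, beside RNA of the lysate it was taken from. The members were 10 genes, given by name: the YTH family (YTHDC1, YTHDC2, YTHDF1, YTHDF2 and YTHDF3), the IGF2BP family (IGF2BP1, IGF2BP2 and IGF2BP3) and the demethylases FTO and ALKBH5. All rows of the deposited table with one of these gene names were kept, which gave 53 transcripts of 9 genes among 75165 transcripts of 20298 genes. IGF2BP1 had no row, under its symbol or its Ensembl identifier. YTHDC1 was the overexpressed and immunoprecipitated protein, so its 6 transcripts are described apart from the 47 transcripts of the other 8 genes. Counts and means given over all 9 genes or all 53 transcripts still include it.

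Both groups of libraries came from MDA-MB-231 cells transduced with 3x flag-YTHDC1 by a lentivirus and selected with puromycin for 4 days, so the input also carried the overexpressed bait. The cells were UV-crosslinked with a 254 nm lamp before lysis. There were 2 IP libraries, made from nuclear lysate with an anti-Flag antibody, and 2 input libraries, which the labels name as total RNA and the protocol takes from the same lysate. An IgG control, cells without the transgene and single clones were not analysed here. The value used for each transcript is the authors' mean normalized count over all 4 libraries together. IP and input are therefore pooled in every value below, and no value can be assigned to either of them. The table's own comparison of IP with input is the authors' result and was not used, so neither binding by YTHDC1 nor a difference between IP and input is described. There is no value per library, so library depth is unknown and the values carry no replicate error and no test. They are read counts without a correction for transcript length, so they are not compared between genes. Within a gene, each share and ratio below is one of reads and not of molecules, since transcripts of a gene also differ in length.

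Over the whole table the mean normalized counts summed to 33361205, with a median of 44.2 and a lowest value of 2.72 for a transcript. The label of the cell line was checked against 7 genes. VIM, the mesenchymal filament protein vimentin, held 80785 mean normalized counts, and the hyaluronan receptor CD44 held 14306. ESR1 and PGR, the oestrogen and progesterone receptors, had no row. The epithelial cadherin CDH1 had 1 listed transcript with a mean normalized count of 10.0, and the epithelial adhesion gene EPCAM held 78.3. The receptor ERBB2 (HER2), sought like ESR1, PGR, CDH1 and EPCAM as a gene low or absent in this line, held 4303 over 15 transcripts. The reads of ERBB2 thus went against that expectation, and the reason was not tested. They are pooled RNA reads and give no level of the HER2 protein.

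m6A is placed on RNA in the nucleus by a methyltransferase complex. Readers bind the methylated adenosine, either through a YTH domain, which holds the methyl group in an aromatic cage, or, in the IGF2BP proteins, through KH domains. YTHDC1 is the nuclear YTH reader, with roles in splicing and export. YTHDF1, YTHDF2 and YTHDF3 are its cytoplasmic relatives, YTHDC2 also holds an RNA helicase, and the IGF2BP proteins stabilize mRNA. FTO and ALKBH5 are oxygenases that take the methyl group off again. Their genes produce several transcripts each, which the annotation sorts into types. A protein-coding transcript has an annotated reading frame for protein, which need not be complete. A nonsense-mediated decay transcript has a stop codon placed so that the RNA is prone to degradation. A retained-intron transcript keeps intron sequence, and a processed transcript has no reading frame.

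Protein-coding transcripts held most of the reads in 7 of the 9 listed genes. In YTHDC1, YTHDF1, YTHDF2, YTHDF3, IGF2BP2 and ALKBH5, protein-coding transcripts held over 95% of the gene's mean normalized counts. YTHDC2 followed with 84.9%. FTO and IGF2BP3 had 46.7% and 36.9%, and in both the most abundant, or leading, transcript was annotated as nonsense-mediated decay. For comparison, the median coding share over the 11482 protein-coding genes with at least 2 listed transcripts was 90.7%, with a lower quartile of 69.8%. A coding share under 50% was found in 1472 of those genes (12.8%), and the leading transcript was of the nonsense-mediated decay type in 694 (6.04%). How many genes lay above 95% was not counted. Among other protein-coding genes with as many listed transcripts, a lower coding share was found in 89.7% for YTHDC1 and 42.0% for YTHDF1. It was found in 64.7% for YTHDF2, 90.0% for YTHDF3 and 83.9% for IGF2BP2. ALKBH5 had 1 listed transcript, so its reads could not be divided. These counts describe the table and were not tested.

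By number of transcripts rather than by reads, most members' transcripts were protein-coding. Of the 53 listed, 32 (60.4%) were protein-coding, against 59.6% of the 65841 transcripts of all protein-coding genes. Another 10 were processed transcripts (18.9%, against 13.2%), 8 were retained-intron transcripts (15.1%, against 17.2%) and 3 were nonsense-mediated decay transcripts (5.66%, against 9.86%). Many were low, as 32 of the 53 had a mean normalized count under 100 and 7 were under 10.

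**Figure D1:**
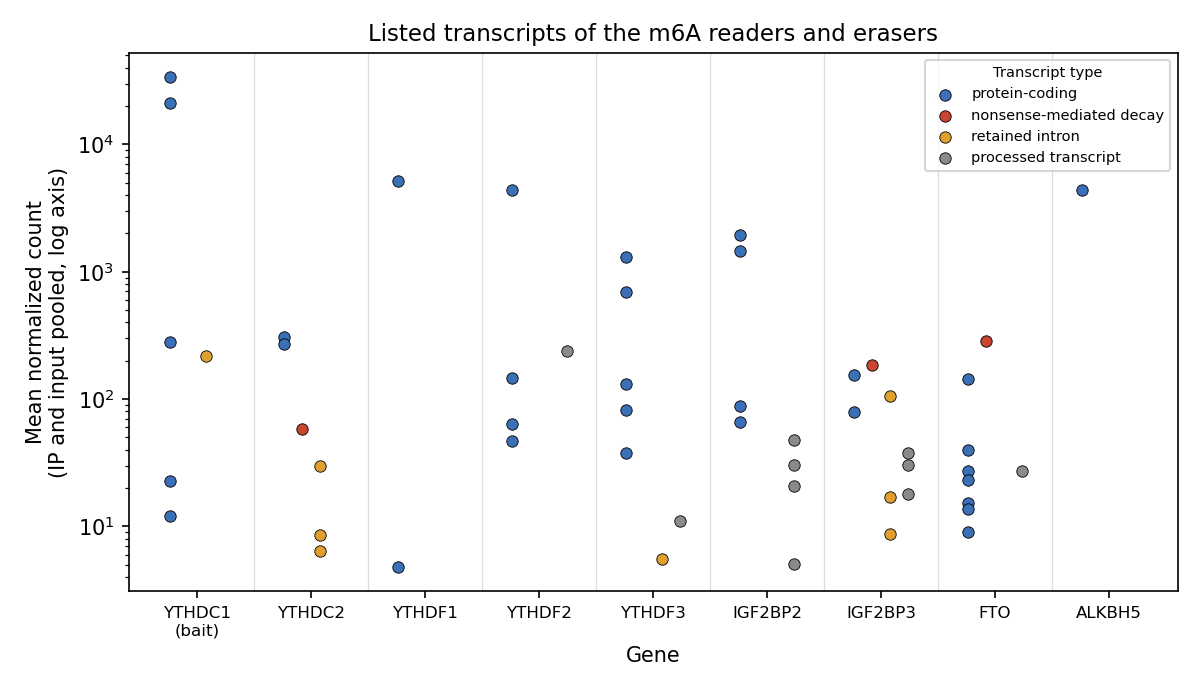
Mean normalized count of each of the 53 listed transcripts (log axis, IP and input pooled), by gene and by annotated transcript type. YTHDC1, the bait, has its highest points at 33599 and 21355. The highest points of FTO and IGF2BP3 are nonsense-mediated decay transcripts of 285 and 184. Heights are not compared between genes.

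YTHDC1 (ENSG00000083896.12, chromosome 4, 68310387 to 68350090) held 55488 mean normalized counts, 0.166% of the sum over the table. Protein-coding YTHDC1-207 had 33599 (60.6% of the gene) and protein-coding YTHDC1-202 had 21355 (38.5%). Together they made up 99.0% of the gene. Protein-coding YTHDC1-203 had a mean normalized count of 283, and retained-intron YTHDC1-204 had 216. The last pair, YTHDC1-205 and YTHDC1-201, had 22.9 and 12.1. The bait was thus spread over 2 coding transcripts that exceeded the next one by far. Reads of the lentiviral coding sequence and of the cell's own YTHDC1 mRNA cannot be told apart in these values. The same holds for the split between YTHDC1-207 and YTHDC1-202, which rests on how the authors' estimate divided the reads that fit both.

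Among the other YTH genes, YTHDF1 (ENSG00000149658.18, chromosome 20, 63195429 to 63216131), known for promoting translation of methylated mRNA, was close to a gene of 1 transcript. YTHDF1-202 had a mean normalized count of 5146, which was 99.9% of the gene, and YTHDF1-201 had 4.82. Of the 2012 other protein-coding genes with 2 listed transcripts, 99.8% had a lower leading share, their median being 79.1%. These genes were not matched on total. A second transcript is listed only if it passed the authors' filter on low reads, which limits the leading share that genes with few reads can reach. The rank of YTHDF1 is therefore not separate from its read level.

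YTHDF2 (ENSG00000198492.16, chromosome 1, 28736624 to 28769775), the reader known for sending methylated mRNA to decay, also leaned on 1 transcript. YTHDF2-201 had a mean normalized count of 4397, or 89.9% of a gene total of 4890.0. The other 4 transcripts had mean normalized counts of 46.8 to 237, the highest being YTHDF2-206, a processed transcript. The leading share was above that of 93.3% of the 1416 other protein-coding genes with 5 listed transcripts, whose median was 56.4%. These genes too were not matched on total. The processed pseudogenes YTHDF1P1 and YTHDF2P1, which resemble the spliced mRNAs of their parent genes, had mean normalized counts of 6.92 and 9.91, or 0.134% and 0.203% of the YTHDF1 and YTHDF2 totals. Reads can be divided between a gene and such a copy, so these small values are uncertain.

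YTHDF3 (ENSG00000185728.17, chromosome 8, 63168553 to 63212788), which is known to act together with the other cytoplasmic readers, was divided among more transcripts. YTHDF3-214 had a mean normalized count of 1315 (57.7% of the gene) and YTHDF3-215 had 695 (30.5%), both protein-coding. Protein-coding YTHDF3-212 came next with 132, and the other 4 transcripts had 5.59 to 81.4. Protein-coding transcripts as a group held 99.3% of the gene. The antisense gene YTHDF3-AS1 had 1 listed transcript with a mean normalized count of 12.9, and the libraries were made with a stranded kit. The strand option of the authors' read counting is not given in the sources used here, so how reads were divided where the genes overlap is uncertain.

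YTHDC2 (ENSG00000047188.16, chromosome 5, 113513694 to 113595284), a YTH protein with a helicase that is best known from meiosis, held 683 mean normalized counts over 6 transcripts. Protein-coding YTHDC2-201 had 309 (45.2%) and protein-coding YTHDC2-207 had 271 (39.7%), so no transcript dominated. The nonsense-mediated decay transcript YTHDC2-202 had a mean normalized count of 58.2 (8.52%), and 3 retained-intron transcripts had 6.38 to 29.9. Its leading share of 45.2% lay below the median of 52.8% over the 1187 other protein-coding genes with 6 listed transcripts, and 33.7% of those genes had a lower share.

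**Figure D2:**
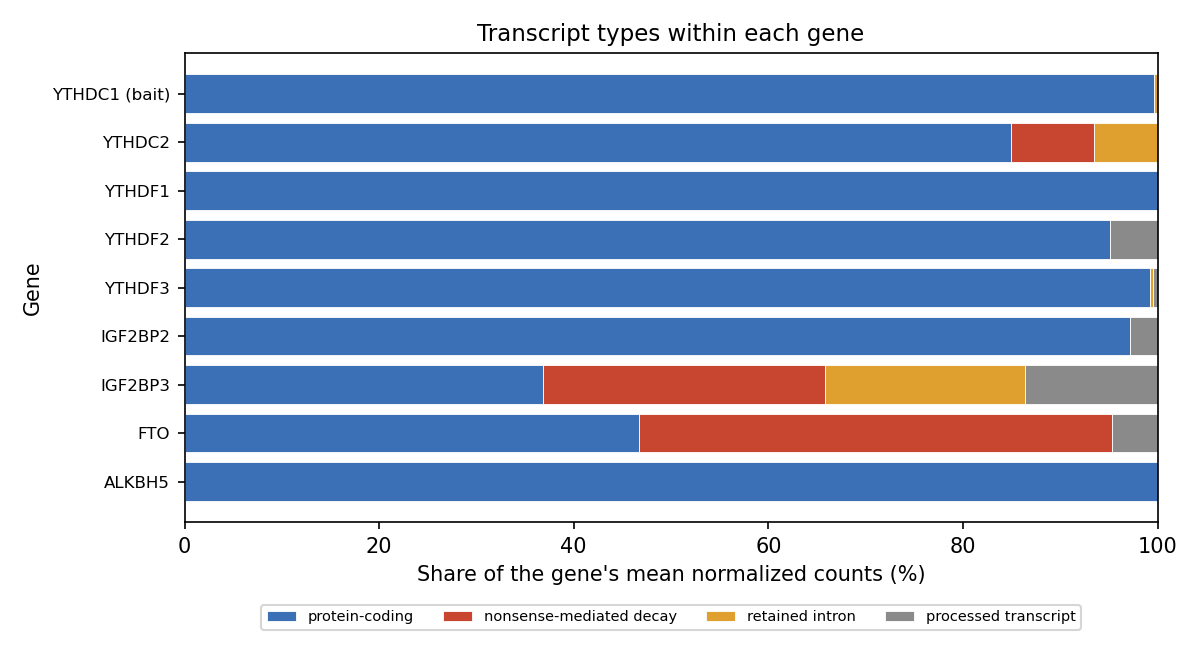
Share of each gene's mean normalized counts (horizontal axis, percent) held by protein-coding, nonsense-mediated decay, retained-intron and processed transcripts. The bars of FTO and IGF2BP3 are 46.7% and 36.9% protein-coding, while those of the other 7 genes are at least 84.9% protein-coding.

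The IGF2BP genes, whose proteins bind and stabilize mRNA, differed from each other in makeup. IGF2BP2 (ENSG00000073792.15, chromosome 3, 185643130 to 185825042) held 3661 mean normalized counts over 8 transcripts. Protein-coding IGF2BP2-201 and IGF2BP2-202 had 1957 and 1445 (53.5% and 39.5%). The other 6 had mean normalized counts of 5.05 to 88.5, and the 4 processed transcripts among them together with no retained-intron or nonsense-mediated decay transcript gave a non-coding share of 2.85%.

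IGF2BP3 (ENSG00000136231.14, chromosome 7, 23310209 to 23470491) was the most evenly divided of the listed members. Its leading transcript was IGF2BP3-202, annotated as nonsense-mediated decay, with a mean normalized count of 184 (29.0% of the gene). Protein-coding IGF2BP3-201 had 155 (24.5%), retained-intron IGF2BP3-206 had 104.9 (16.5%), and protein-coding IGF2BP3-218 had 78.6 (12.4%). In reads, IGF2BP3-202 exceeded IGF2BP3-201 by a ratio of 1.18, and no error is known for this ratio. Retained-intron transcripts held 20.6% of the gene and processed transcripts 13.6%. Of the 441 other protein-coding genes with 9 listed transcripts, 7.94% had a lower leading share and 5.22% a lower coding share. Their medians were 47.5% and 86.0%.

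IGF2BP1 (chromosome 17, 48996558 to 49056145) had no row, so no value is given for it. The authors removed transcripts with few reads before deposit, and whether this removed IGF2BP1 cannot be read from the table.

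**Figure D3:**
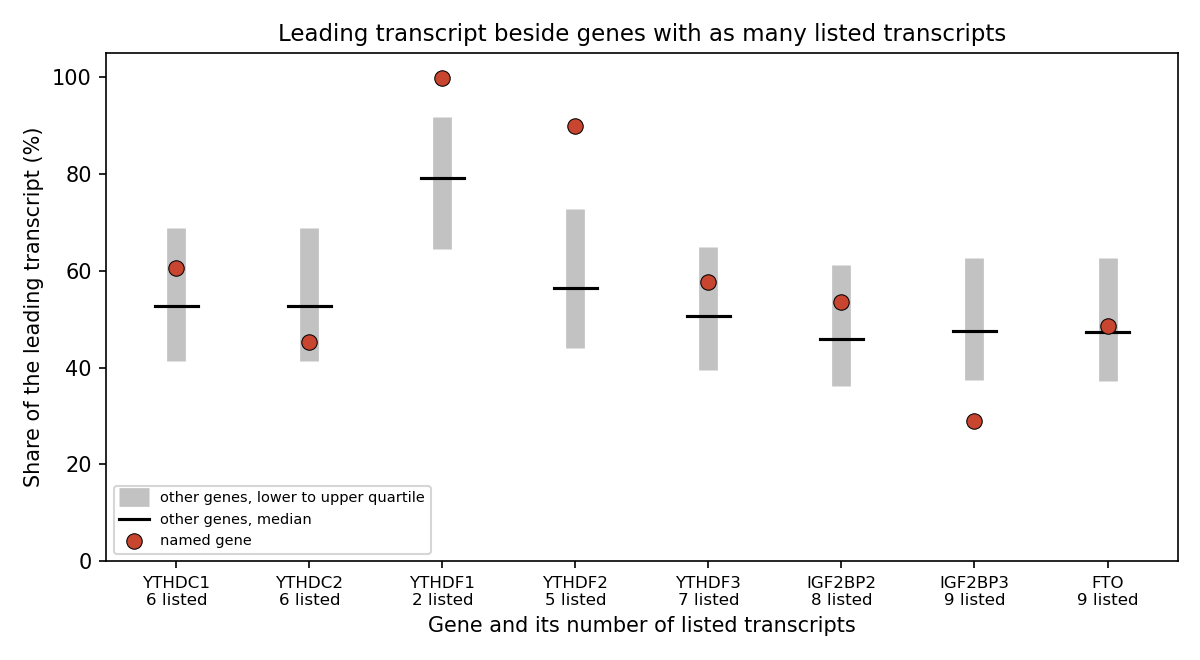
Share of the gene's mean normalized counts held by its leading transcript (points, percent) for the 8 genes with at least 2 listed transcripts, with the quartiles (grey bars) and medians (black lines) of other protein-coding genes with as many listed transcripts. The other genes were not matched on total. YTHDF1 at 99.9% and YTHDF2 at 89.9% lie above the upper quartiles, IGF2BP3 at 29.0% lies below the lower quartile, and the other 5 lie between the quartiles.

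The demethylases differed in makeup. ALKBH5 (ENSG00000091542.9, chromosome 17, 18183828 to 18209954), a nuclear m6A demethylase, had 1 listed transcript, protein-coding ALKBH5-201, with a mean normalized count of 4381. It shared this with 2568 of the 14050 protein-coding genes (18.3%), itself included. FTO (ENSG00000140718.21, chromosome 16, 53703963 to 54121941), which demethylates m6A and the related mark beside the mRNA cap, had 9 listed transcripts that summed to 586.

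Within FTO, the nonsense-mediated decay transcript FTO-220 had a mean normalized count of 285, or 48.7% of the gene. That was 1.97 times the value of the most abundant protein-coding transcript, FTO-202, with 145 (24.7%). The other 7 were 6 protein-coding transcripts and 1 processed transcript with mean normalized counts of 9.02 to 40.0, and no retained-intron transcript was listed. The coding share of 46.7% was above that of 9.98% of the 441 other protein-coding genes with 9 listed transcripts, of which 25 (5.67%) had a leading nonsense-mediated decay transcript. Among the 3855 protein-coding genes with at least 2 listed transcripts and a total within 2-fold of that of FTO, 6.15% had such a leading transcript and 11.1% a lower coding share. FTO-220 was thus an uncommon kind of leading transcript for a gene with this many reads, and so was IGF2BP3-202, for which the same share was 6.05% over 3932 genes. A longer transcript collects more reads from the same number of molecules, and transcript lengths were not used, so the order of FTO-220 and FTO-202 in molecules cannot be read from these values.

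The other m6A genes were described from lists of writers, other RNA-binding proteins proposed as readers, and partners of YTHDC1. All 12 writers were listed, with 61 transcripts and a median coding share of 94.0%. In 1 of them, METTL16, which methylates U6 snRNA and MAT2A mRNA, the leading transcript was of the nonsense-mediated decay type (METTL16-208, mean normalized count 579, 44.9% of the gene), and its coding share of 40.6% was the lowest among the writers. In METTL5, RBM15, RBM15B and ZC3H13 the coding share was 100%, the highest. All 9 other proposed readers were listed, with 72 transcripts, and each had a protein-coding leading transcript. Their coding shares ran from 78.9% in FXR1, a relative of the fragile X protein, to 99.7% in ELAVL1, which binds AU-rich RNA. The 3 partners, the splicing factors SRSF3 and SRSF10 and the export receptor NXF1, had coding shares of 73.3%, 48.6% and 92.4%. Across the 8 members other than YTHDC1, the median coding share was 96.2%. Medians were thus similar in the members, the writers and the other proposed readers (94.7%), while that of the 3 partners was 73.3%. ALKBH5 among the members and RBM15B among the writers had 1 listed transcript each, so their reads could not be divided. The coding shares under 50% were those of FTO, IGF2BP3, METTL16 and SRSF10.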

How the data were processed

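RIP-seq was read from 1 deposited table of 4 libraries, 2 IP and 2 input, of MDA-MB-231 cells overexpressing 3x flag-YTHDC1. Per the paper and the submitters' processing notes, the authors aligned reads with STAR (2.7.2b) against GENCODE v33 transcripts (GRCh38) and estimated transcript reads with RSEM (1.2.31). The authors dropped transcripts lacking 5 or more reads in 50% of libraries, removed batch effects with RUVSeq and ran DESeq2. Libraries were rRNA-depleted and made with a stranded KAPA kit. RSEM's strand option and the handling of duplicates are not given in the sources used here. The deposited signal value is each transcript's mean normalized count over all libraries. The table's log2 fold change, standard error, p-value and adjusted p-value are the authors' own comparison and were not used. A test with edgeR had been planned and was not run, as the table has no counts per library.

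RSEM divides reads that fit several transcripts by an estimate. Transcripts were summed by gene identifier, and shares of a gene total were set beside protein-coding genes with as many listed transcripts, in steps tested on simulated data. Coordinates are RefSeq's on GRCh38.p14, and 9 of 9 member identifiers matched a table of gene names. Python 3.11.15, numpy 2.4.6, pandas 2.3.3 and matplotlib 3.10.9 were used. The members and lists were chosen with earlier results of these data known. Named were all 10 members, their most abundant transcripts, and the lowest and highest of each list by coding share, with SRSF3 to complete the partners.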

Additional observations from a re-analysis of the deposited data

How the results depend on the processing

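No paired analysis was possible because the table gives 1 pooled value per transcript, and for the same reason leaving out a replicate, other normalizations and count tests were not run. The value per kilobase was not run, as no transcript lengths were used. With no replicate error, counts and totals were taken as unchanged within 1.5 times and shares within 5 percentage points. Of the 53 listed transcripts, 46 had a mean normalized count of at least 10 and 21 of at least 100. The members' summed total of 77752 was 22263 without YTHDC1, a setting added after the data were seen, and 76361 with protein-coding transcripts only. The mean leading share over the 9 listed members was 64.9%, and it was 71.2% with protein-coding transcripts only and 70.3% with mean normalized counts of at least 100. Without YTHDC1 it was 65.5%. The leading transcript changed in 2 genes with protein-coding transcripts only, by the construction of that setting: FTO-202 then led FTO with 53.0% and IGF2BP3-201 led IGF2BP3 with 66.4%. It changed in 0 genes with the minimum of 100, also by construction, as every leading transcript was above 100. The mean coding share was 84.4%, and it was 94.0% with nonsense-mediated decay transcripts counted as coding and 68.7% by number of transcripts. Without YTHDC1 it was 82.5%. The low coding share of FTO, 46.7%, moved under each alternative. It was 33.7% with the minimum of 100, 95.3% with nonsense-mediated decay counted as coding, and 77.8% by number. For IGF2BP3, at 36.9%, the same settings gave 35.0%, 65.8% and 22.2%. The mean retained-intron share was 3.08% in reads and 12.7% by number. The mean nonsense-mediated decay share was 9.57%, and 12.0% with the minimum of 100. Without YTHDC1, the mean retained-intron and nonsense-mediated decay shares in reads were 3.42% and 10.8%. Of 108 values of single genes under the alternatives, 73 stayed within these bounds and 35 did not. Some of the 73 could not move. Examples are all values of ALKBH5, with 1 listed transcript, and nonsense-mediated decay shares of genes with no such transcript. The tally is therefore no measure of stability.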
